A study of Mus musculus with 4 samples.

Results

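The genes described here are the receptors for interleukins and colony stimulating factors of the mouse, with the kinases that act directly beneath them. They were taken by symbol: every gene named Il, a number and r, plus a fixed list of the shared receptor chains, the interferon receptors, Flt3 and the 4 Janus kinases. The rule found 58 genes among the 53291 gene features of the table. It also takes Il1rn, a secreted antagonist of the IL-1 receptor, and Il1rapl1 and Il1rapl2, which are known mainly from synapses. RNA was sequenced from female germline stem cells of C57BL/6 mice, cultured ovarian cells beyond passage 20, after 4 h with spermidine (2 libraries) or as controls (2 libraries). Spermidine is a polyamine that cells make from ornithine. Neither its dose nor what the controls received is stated in the sources used here. Whether the libraries come from separate cultures is not stated, so the p-values reflect the spread between these libraries alone, and that spread may be technical.

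Most of these receptors work as pairs or trios, in which a private chain recognises the cytokine and a shared chain carries the signal. Janus kinases bound to the inner tails of class I and class II receptors phosphorylate STAT proteins, whereas IL-1 and IL-17 receptors signal through adaptors to NF-kappaB. Mast cells, lymphocytes and megakaryocytes are known for high levels of several of these receptors. Gp130 and the LIF receptor are more widely expressed, and LIF is used in stem cell culture.

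Controls held 7206176 and 7128901 counts and spermidine libraries 787600 and 1718944. The single row AY036118 took under 2% of control counts but 29.6% and 30.7% of spermidine counts. Counts on 1456 olfactory and vomeronasal receptor genes, which serve as a measure of background, reached 3.19 per kb in spermidine replicate 1 against 0.0596 to 0.173 in the other libraries. Of 10 germ cell markers, which summed to 9.13 and 21.7 CPM (counts per 1000000 counts, scaled by TMM) in controls and 128 and 334 in spermidine libraries, 4 were tested and all 4 rose: Dppa3, Ifitm3, Mael and Sycp3. In the controls Ifitm3 had 49 and 132 counts and each of the other 3 had 3 or fewer. Those 3 were kept for testing on the strength of the spermidine libraries alone, which largely sets their direction. The defining germ cell genes Ddx4 and Dazl, on 434 and 432 countable bases, had at most 1 count in either control and at most 2 in either spermidine library. In bulk RNA, fewer cells of a type and less RNA per cell cannot be told apart.

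Reads were counted almost only on bases that belong to 1 transcript row, called own bases here: the 49975 rows without any held at most 0.00140% of the counts of a library. The length on which a gene could be seen therefore differed widely. Among the 58 genes, 20 had under 300 own bases, and Il2rg and Il13ra2 had 0. No counts in any library were recorded for 17 genes, of which 14 had under 300 own bases. For those 14, a count of 0 says little about the gene. The low-count filter left 18 genes for testing. Of the other 40, 9 had at least 10 counts over the 4 libraries and 14 had 1 to 9.

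Of the 18 tested genes, 4 rose and 3 fell with spermidine by the quasi-likelihood test of edgeR, with p-values adjusted by Benjamini-Hochberg over all 7836 tested genes. Among all tested genes 28.8% were called, 24.8% higher and 3.99% lower, so the share that rose was close to the background and the share that fell was above it. Lifr, Il17rb, Il1rap and Jak2 rose, and Csf2rb2, Il2ra and Il4ra fell. All 4 genes that rose passed the filter only through the spermidine libraries, which largely sets their direction. Il13ra1 and Il18r1 passed in the same way and were not called. The 3 that fell passed through both groups. The median log2 fold change was 1.14 over the 18 tested genes and 0.23 over all tested genes.

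**Figure D1:**
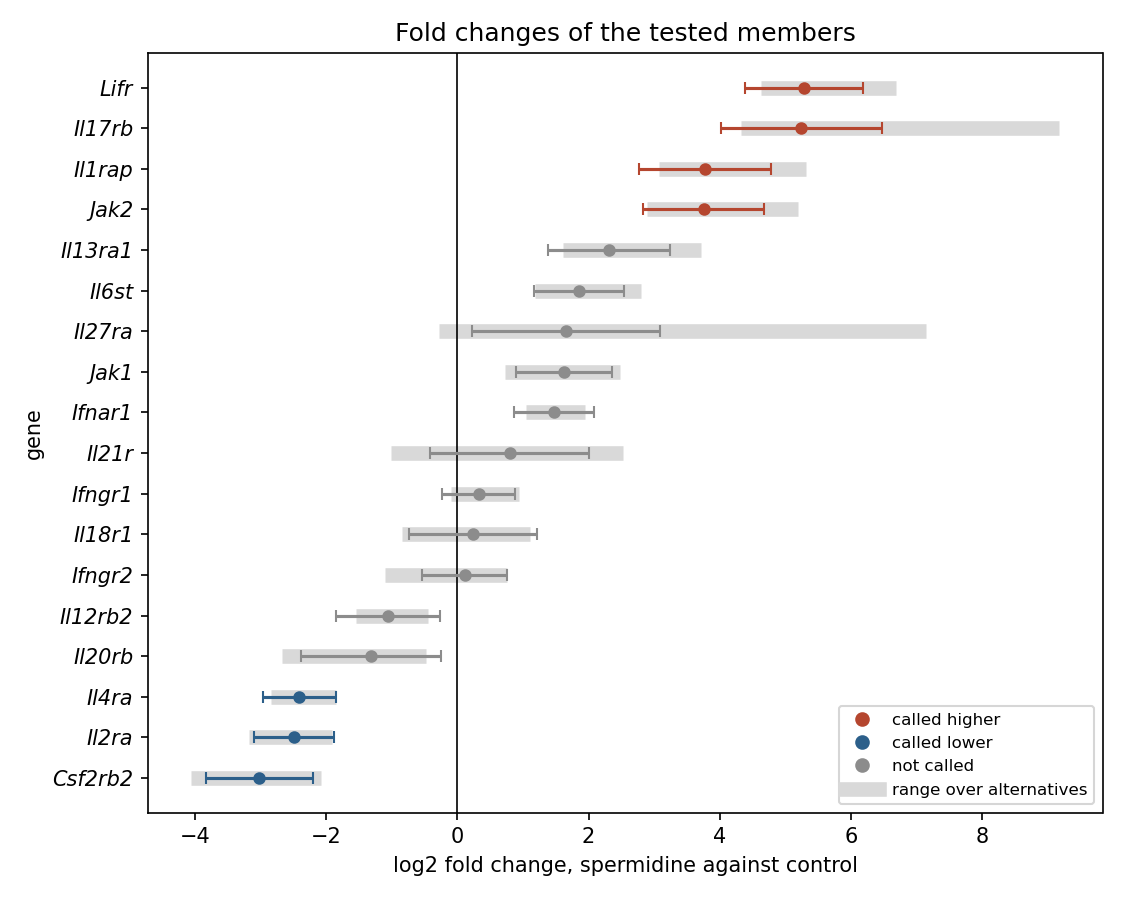
Log2 fold change of spermidine over control for the 18 tested genes, with bars of 1 standard error from the edgeR fit on 2 libraries a group. Lifr and Il17rb lie above 5, and Csf2rb2, Il2ra and Il4ra lie below -2.

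Il2ra and Il4ra, both among the genes that fell, had the most reads of the 58 genes in both controls. Il2ra and Il4ra together held 62.2% and 49.4% of all counts of the 58 genes in control replicates 1 and 2, against 14.0% and 7.83% in spermidine replicates 1 and 2. The 58 genes as a whole took a similar share of each library, from 0.0926% to 0.0990% of all counts. Those totals include AY036118, which took 29.6% and 30.7% of spermidine counts but 1.68% and 1.64% of control counts. The similar share therefore depends on that row. In TMM-scaled CPM the 58 genes summed to 1034 and 985 in controls and 834 and 1164 in spermidine libraries. Expressed per kb of own bases and per 1000000 counts of a library after TMM scaling, the highest control level was that of Csf2rb2, at 209 and 156. Il4ra followed at 137 and 101, Il2ra at 77.3 and 59.4 and Ifngr2 at 65.2 and 65.8. The control levels of Csf2rb2 and Il4ra did not overlap, and those of Il2ra and Ifngr2 did. On the same scale, the order in the spermidine libraries was led by Jak1 at 65.8 and 179, and Ifngr2 stood at 29.3 and 110. These levels are given only for the 38 genes with at least 300 own bases.

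**Figure D2:**
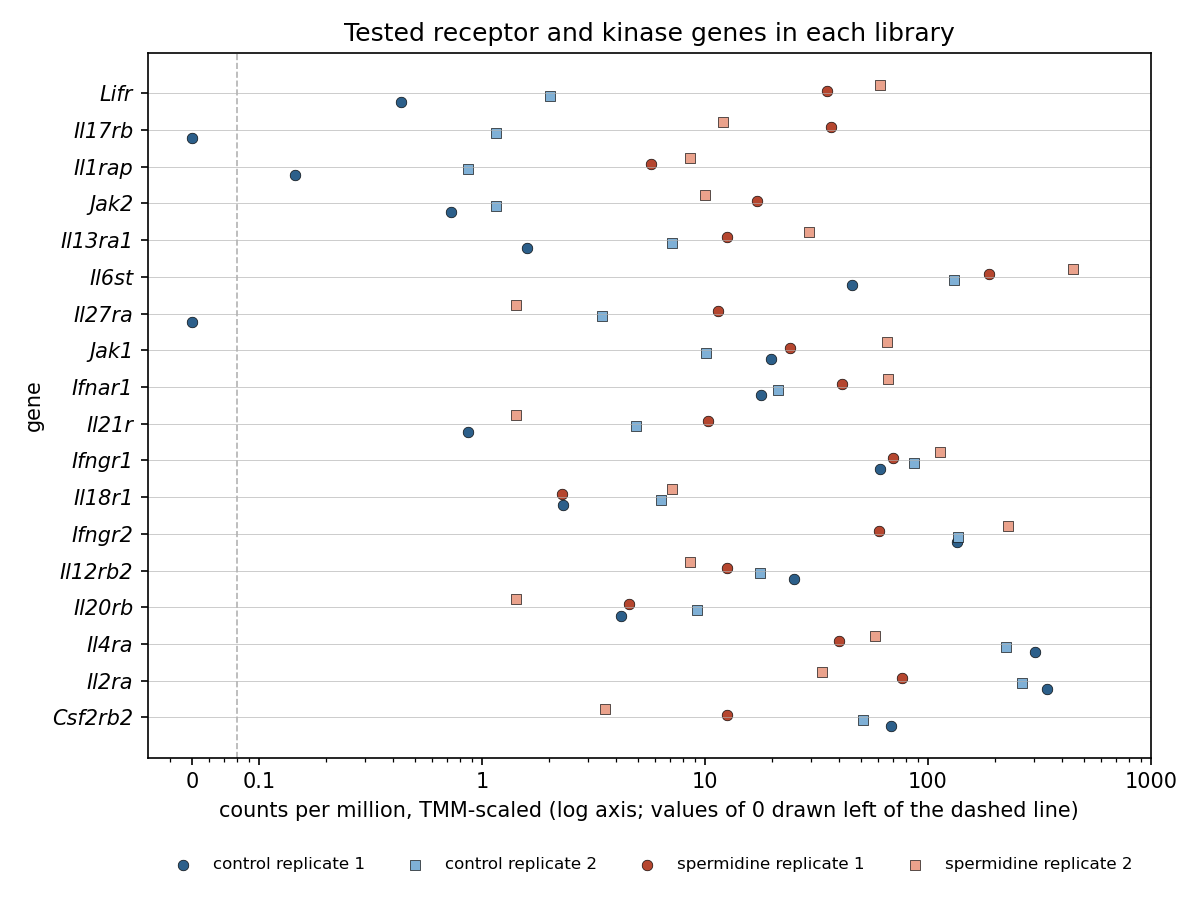
Counts per 1000000 counts of a library, scaled by TMM (CPM), on a log axis for the tested genes in each of the 4 libraries. Il2ra and Il4ra stand at 223 to 342 in the controls and at 33.5 to 76.6 in the spermidine libraries, while Lifr and Il17rb stand below 2.1 in both controls.

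The first group is formed by 11 receptors for IL-2, IL-4 and related cytokines, most of which share the common gamma chain. Of 4 tested, 2 fell and none rose. Il2ra, the high-affinity alpha chain of the IL-2 receptor, had 2363 and 1819 counts in controls and 67 and 47 in spermidine libraries. Both spermidine libraries were below both controls also after scaling, at 76.6 and 33.5 CPM against 342 and 263. Its log2 fold change was -2.49 ± 0.61 (SE; edgeR adjusted p = 0.0147). The gene lies at chr2:11642792-11693194 on the plus strand (GRCm38), and 81.5% of its 4428 own bases are in untranslated exon sequence.

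Il4ra, the chain that binds IL-4 and also serves the IL-13 receptor, had 2078 and 1542 counts in controls and 35 and 81 in spermidine libraries. In scaled counts this was 301 and 223 CPM against 40.0 and 57.7 CPM, again without overlap. Its log2 fold change was -2.41 ± 0.56 (edgeR adjusted p = 0.0120). Il4ra lies at chr7:125552271-125579474 on the plus strand. A further row at this locus that carries no symbol had 11 and 17 counts in controls and 0 and 1 in spermidine libraries.

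The partners of both chains were seen less well. Il2rb, the beta chain of the IL-2 receptor, had 0 counts in both controls, 8 in spermidine replicate 1 and 0 in spermidine replicate 2, on 273 own bases. Il2rg, the common gamma chain itself, has no own base and could not be counted. Il13ra1, which pairs with Il4ra to bind IL-13, had 11 and 49 counts in controls and 11 and 41 in spermidine libraries. After scaling it was higher in both spermidine libraries, at 12.6 and 29.2 CPM against 1.59 and 7.09, with a log2 fold change of 2.32 ± 0.93 (edgeR adjusted p = 0.0969). It passed the filter only through the spermidine libraries, and its 11 counts in spermidine replicate 1 did not exceed the background of 11.9. It was called at an equal depth of all libraries (adjusted p = 0.0348) and in no other alternative. Il21r, the IL-21 receptor, lies 23.8 kb from Il4ra on chromosome 7. It had 6 and 34 counts in controls and 9 and 2 in spermidine libraries, and the groups overlapped (0.80 ± 1.21 on the log2 scale, edgeR adjusted p = 0.658). Il15ra, the next of these genes to Il2ra on chromosome 2, had 2 and 6 counts in controls and 0 in both spermidine libraries and was not tested. Il7r, Il9r and Crlf2, receptor chains for IL-7, IL-9 and TSLP, had no counts on 209 or fewer own bases, and Il13ra2 has no own base. Unnamed rows at the Crlf2 locus had 3 and 1 counts in controls and 0 in both spermidine libraries.

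Beside the fall of Il2ra and Il4ra, some markers of mast cells and basophils fell and others did not. Of 16 listed markers, 15 were in the table and 4 were tested, of which 3 fell: Cpa3, a mast cell carboxypeptidase, Fcer1g, a signalling chain of Fc receptors, and Gata2, a transcription factor. Their counts were 924 and 549 in controls against 10 and 7 for Cpa3, 1799 and 1186 against 35 and 23 for Fcer1g, and 1437 and 1000 against 32 and 21 for Gata2. The fourth, the mast cell chymase Cma1, had 36 and 23 counts against 11 and 2 and was not called (0.49 on the log2 scale, edgeR adjusted p = 0.758). Mitf, Mcpt4, Tpsb2 and Mrgprb1 had no counts in controls and 16, 11, 11 and 8 in spermidine replicate 1 alone. Their own bases were 523, 990, 67 and 4185, and the background in that library was 3.19 counts per kb. The count of Mrgprb1 was below that background. The summed level of the list was 612 and 406 CPM in controls and 160 and 38.4 CPM in spermidine libraries. Fcer1a and Ms4a2, the other chains of the IgE receptor, were at 0 in every library, on 26 and 131 own bases. Kit had 9 and 13 counts in controls and 0 and 1 in spermidine libraries. Of 10 megakaryocyte and platelet markers, which summed to 2001 and 1558 CPM in controls and 304 and 155 CPM in spermidine libraries, 2 of 5 tested fell. These were Plek and Itga2b, which made up most of that sum, and the median of the 5 was -0.25. The platelet genes Pf4 and Ppbp were not called (2.24 and 0.05 on the log2 scale, edgeR adjusted p = 0.113 and 0.977). Il1rl1 is both a listed mast cell marker and one of the 58 genes. The part of such cells in the fall of the receptors was not tested.

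The second group, with 5 genes, holds the receptors for IL-3, IL-5 and GM-CSF, which share a beta chain. Only Csf2rb2, the mouse beta chain specific to IL-3, passed the filter, and it fell. It had 471 and 353 counts in controls and 11 and 5 in spermidine libraries, or 68.3 and 51.1 CPM against 12.6 and 3.56 CPM without overlap. This gave a log2 fold change of -3.02 ± 0.82 (edgeR adjusted p = 0.0223). The alpha chain of the IL-3 receptor, Il3ra, had 7 and 5 counts in controls and 1 and 0 in spermidine libraries. Csf2ra, the alpha chain for GM-CSF, had no counts on 106 own bases, with 1 and 2 control counts in unnamed rows at its locus. Il5ra, the alpha chain for IL-5, had counts only in spermidine replicate 1, where there were 5.

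Csf2rb2 has a close copy, Csf2rb, which serves all 3 cytokines and lies 20.1 kb away on chromosome 15. Csf2rb had no counts on 23 own bases, and unnamed rows at its locus had 15 and 10 counts in controls and 0 in both spermidine libraries. All 327 own bases of Csf2rb2 are coding and fall in exon 6, at chr15:78292461-78292629, and exon 5, at chr15:78292708-78292865, on the minus strand (GRCm38). The sequences of these exons and their counterparts in Csf2rb are shown because the whole measurement of Csf2rb2 rests on reads that must be told apart from the copy. They were read from GENCODE M21 transcripts, 5′ to 3′, with capitals at the bases where both genes differ.
Csf2rb2 exon 6: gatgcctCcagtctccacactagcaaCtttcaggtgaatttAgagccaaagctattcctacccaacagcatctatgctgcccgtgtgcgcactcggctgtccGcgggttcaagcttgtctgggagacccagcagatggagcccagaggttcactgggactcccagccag
Csf2rb exon 6 counterpart: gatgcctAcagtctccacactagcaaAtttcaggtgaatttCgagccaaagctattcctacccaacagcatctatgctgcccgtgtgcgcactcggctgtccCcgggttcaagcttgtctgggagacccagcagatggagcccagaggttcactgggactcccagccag
Csf2rb2 exon 5: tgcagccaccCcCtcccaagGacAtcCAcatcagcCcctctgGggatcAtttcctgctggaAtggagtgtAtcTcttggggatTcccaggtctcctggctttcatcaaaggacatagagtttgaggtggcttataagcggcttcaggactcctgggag
Csf2rb exon 5 counterpart: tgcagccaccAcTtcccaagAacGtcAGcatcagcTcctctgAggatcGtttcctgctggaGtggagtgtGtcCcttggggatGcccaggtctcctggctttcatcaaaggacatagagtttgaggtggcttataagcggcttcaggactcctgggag
The first pair differs at 4 of 169 bases (97.6% identity) and the second at 13 of 158 bases (91.8%), with no gap. How reads that fit both genes were treated is not stated in the sources used here, so the split of counts between Csf2rb2 and Csf2rb is uncertain.

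The promoters of the 3 genes called lower are shown next. Whether these genes share regulation was not tested. Each window runs from 250 bases before to 50 bases after the RefSeq start (GRCm38.p6), 5′ to 3′ on the gene's strand. Capitals mark TTCNNNGAA, the palindromic STAT motif, which reads the same on both strands.
Csf2rb2 promoter, chr15:78305672-78305971, minus strand: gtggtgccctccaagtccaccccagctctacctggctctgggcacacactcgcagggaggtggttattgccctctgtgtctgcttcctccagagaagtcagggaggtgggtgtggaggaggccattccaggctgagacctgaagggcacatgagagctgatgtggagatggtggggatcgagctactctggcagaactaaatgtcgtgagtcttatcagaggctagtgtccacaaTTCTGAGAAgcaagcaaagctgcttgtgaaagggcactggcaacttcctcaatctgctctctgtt
Il2ra promoter, chr2:11642542-11642841, plus strand: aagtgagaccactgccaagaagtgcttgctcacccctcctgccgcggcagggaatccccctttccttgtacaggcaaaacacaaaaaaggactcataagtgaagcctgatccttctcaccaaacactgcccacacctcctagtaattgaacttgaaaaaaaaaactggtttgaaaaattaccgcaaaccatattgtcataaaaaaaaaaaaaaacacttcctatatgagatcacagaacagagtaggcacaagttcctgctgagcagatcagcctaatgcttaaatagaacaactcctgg
Il4ra promoter, chr7:125552021-125552320, plus strand: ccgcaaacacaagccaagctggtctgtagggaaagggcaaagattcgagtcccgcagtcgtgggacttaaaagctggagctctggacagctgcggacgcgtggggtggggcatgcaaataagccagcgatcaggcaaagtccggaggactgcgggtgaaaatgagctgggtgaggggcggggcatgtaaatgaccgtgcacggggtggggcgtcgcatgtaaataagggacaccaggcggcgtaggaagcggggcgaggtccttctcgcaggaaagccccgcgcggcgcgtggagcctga
The motif was present once, starting 15 bases before the start, in Csf2rb2 and was not in the windows of Il2ra and Il4ra. It was present in 8 of the 50 member genes with a promoter in the table, and in 9.55% of all 27025 genes with one. The Il4ra window is rich in CpG, with 25 such pairs and 62.0% G and C. Il2ra had 3 CpG pairs and 42.7% G and C, and Csf2rb2 had 3 and 55.0%, against a median of 7 and 52.7% over all promoters. A match is a description of the letters and not a site of binding.

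The 3 falls depended on which libraries were used. Each lost its call without control replicate 1, without control replicate 2 and without spermidine replicate 1. Those fits have 1 library in a group. They called fewer genes over the whole table too, so the loss is not particular to these genes. The direction held in every alternative, with log2 fold changes from -4.06 to -2.08 for Csf2rb2, from -3.18 to -1.91 for Il2ra and from -2.85 to -1.85 for Il4ra. With the controls thinned to the depth of the spermidine libraries, only Il4ra was called, and the adjusted p was 0.0880 for Csf2rb2 and 0.0691 for Il2ra.

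The third group holds 12 receptors of the gp130 and IL-12 family, and 1 of 4 tested genes rose. Lifr, the receptor chain for LIF and oncostatin M, had 3 and 14 counts in controls and 31 and 86 in spermidine libraries, although those libraries are several times smaller. Scaled levels were 0.435 and 2.03 CPM in controls and 35.4 and 61.2 CPM in spermidine libraries. The log2 fold change was 5.28 ± 0.90 (edgeR adjusted p = 0.00627), the largest of the 18 tested genes. Lifr lies at chr15:7090610-7197489 on the plus strand, and 96.6% of its 6230 own bases are in untranslated exon sequence. At the background rate of spermidine replicate 1, a gene of this length would hold 19.9 counts there, below the 31 observed (95% exact Poisson interval 21.1 to 44.0, counting error only). In spermidine replicate 2 the background was 1.08 counts against 86 observed. Lifr kept its call with that background subtracted. It lost the call without control replicate 1, a fit with 1 control library in which calls were lost over the whole table.

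Il6st, which encodes gp130, the signalling partner of Lifr, was the most abundant of the group in counts. It had 314 and 906 counts in controls and 165 and 626 in spermidine libraries. In scaled counts this was 45.5 and 131 CPM against 189 and 446 CPM. Both spermidine libraries were above both controls, but the controls differed from each other by more than 2-fold. The log2 fold change of 1.85 ± 0.69 was not called (edgeR adjusted p = 0.0764). It was called in 5 of 19 alternatives, among them DESeq2 (adjusted p = 0.0321) and equal depth (0.0252), with values from 1.18 to 2.80 over all 19. Osmr, which pairs with gp130 to bind oncostatin M, had counts only in spermidine replicate 1, where there were 3 against a background of 3.08.

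Among the IL-12 and IL-23 receptors, only Il12rb2 was tested. Il12rb2, the IL-12 signalling chain, had 174 and 122 counts in controls and 11 and 12 in spermidine libraries. Both spermidine libraries were below both controls in CPM, at 12.6 and 8.54 against 25.2 and 17.7. The log2 fold change of -1.06 ± 0.79 did not pass the test (edgeR adjusted p = 0.350). Il12rb1, the chain common to both receptors, had 9 and 5 counts in controls and 11 and 0 in spermidine libraries. Il23r, the private chain for IL-23, lies 46.6 kb from Il12rb2 on chromosome 6 and had 0 counts in both controls against 23 and 3. Il27ra, for IL-27, had 0 and 24 counts in controls and 10 and 2 in spermidine libraries, which overlapped (1.65 ± 1.43, edgeR adjusted p = 0.423). It was called only without control replicate 2, at 7.14 (adjusted p = 0.0310). Il6ra, Il11ra2, Csf3r and Il31ra had no counts, and Il11ra1 had 2 and 0 in controls and 1 and 0 in spermidine libraries.

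The class II group, 10 receptors for interferons and the IL-10 family, held 4 tested genes and no call. Ifngr1, the ligand-binding chain for interferon gamma, had 423 and 599 counts in controls and 61 and 160 in spermidine libraries, or 61.3 and 86.7 CPM against 69.8 and 114. Ifngr2, its signalling chain, had 931 and 942 counts in controls and 53 and 321 in spermidine libraries. Its 2 controls agreed at 135 and 136 CPM, while the spermidine libraries lay on either side at 60.6 and 228. The log2 fold changes were 0.32 ± 0.55 for Ifngr1 (edgeR adjusted p = 0.696) and 0.11 ± 0.65 for Ifngr2 (0.917). A standard error of this size does not show that the interferon gamma receptor was unaltered. Without spermidine replicate 2 the estimate for Ifngr2 was -1.10 and that for Ifngr1 -0.015.

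Ifnar1, a chain of the type I interferon receptor, had 123 and 147 counts in controls and 36 and 93 in spermidine libraries. Both spermidine libraries stood above the controls, at 41.2 and 66.2 CPM against 17.8 and 21.3, but the log2 fold change of 1.48 ± 0.61 was not called (edgeR adjusted p = 0.107). It was called in none of 19 alternatives. Of its 3739 own bases, 85.9% lie outside the GENCODE M21 exons of Ifnar1, so most of the value rests on a RefSeq model alone. Its partner Ifnar2 has 33 own bases and had 1 count in each control. Unnamed rows at the Ifnar2 locus had 12 and 9 counts in controls and 3 and 0 in spermidine libraries. Ifnar2, Il10rb, Ifnar1 and Ifngr2 lie side by side on chromosome 16, between 91372783 and 91564007, and Il10rb, the shared chain of the IL-10 family, had 12 and 15 counts against 3 and 2.

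Il20rb, a chain for IL-19, IL-20 and IL-24, had 29 and 64 counts in controls and 4 and 2 in spermidine libraries. It was the only one of the 18 that passed the filter through the controls alone, its groups overlapped in CPM, and its log2 fold change was -1.32 ± 1.07 (edgeR adjusted p = 0.388). Il22ra1, the IL-22 receptor, had 0 counts in both controls and 23 and 3 in spermidine libraries. Il22ra2, a soluble binding protein for IL-22, and Il20ra had 6 and 4 counts in spermidine replicate 1 and none elsewhere. Il10ra had no counts on 6 own bases.

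**Figure D3:**
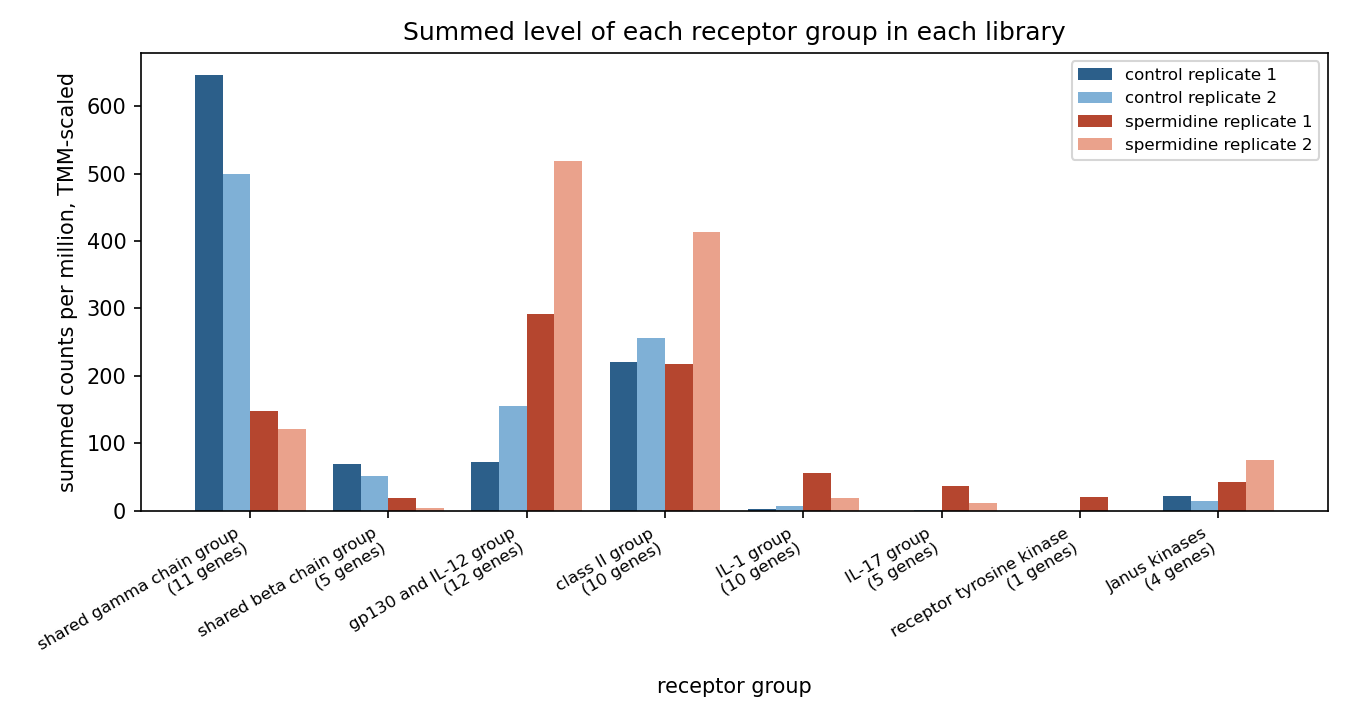
Summed level of each receptor group in TMM-scaled CPM as bars from 0 for the 4 libraries, in the order given in the key. The shared gamma chain group goes from 646 and 499 in controls to 149 and 122, and the gp130 and IL-12 group from 72.7 and 155 to 292 and 519.

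The IL-1 group holds 10 genes, with 1 of 2 tested genes higher. Il1rap, the accessory protein that IL-1, IL-33 and IL-36 receptors share, had 1 and 6 counts in controls and 5 and 12 in spermidine libraries. Scaled levels were 0.145 and 0.868 CPM against 5.72 and 8.54 CPM, and the log2 fold change was 3.78 ± 1.01 (edgeR adjusted p = 0.0189). The count of 5 in spermidine replicate 1 was below its background of 12.2, and the 12 in replicate 2 were above a background of 0.659. With the background subtracted Il1rap was no longer tested. The call was also lost with DESeq2 (adjusted p = 0.101), without control replicate 1 and without spermidine replicate 1. The latter fits have 1 library in a group and called fewer genes over the whole table too.

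Il18r1, the IL-18 receptor, had 16 and 44 counts in controls and 2 and 10 in spermidine libraries, but its CPM of 2.32 and 6.37 against 2.29 and 7.12 overlapped fully. The log2 fold change was 0.24 ± 0.98 (edgeR adjusted p = 0.878). Its partner Il18rap had no counts on 26 own bases, while an unnamed row at its locus had 19 and 18 counts in controls and 0 in both spermidine libraries. With such rows added to their genes, Il18rap was tested at -6.45 ± 2.47 (edgeR adjusted p = 0.0911) and no call changed. Il1r2, Il1r1, Il1rl2, Il1rl1, Il18r1 and Il18rap form a cluster on chromosome 1 between 40084692 and 40551707, with 0.133 kb between Il1rl1 and Il18r1. Il1r1, the signalling receptor for IL-1, and Il1r2, its decoy, had 12 and 7 counts in spermidine replicate 1 and 0 in every other library. Il1rl1, the IL-33 receptor, had 3 counts in each control and 1 and 0 in spermidine libraries, and Il1rl2, the IL-36 receptor, had 5 and 1 in spermidine libraries alone. Il1rn had no counts on 486 own bases.

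Of the 5 IL-17 receptors, Il17rb was the only one with enough own bases to be seen, and it rose. Il17rb, the chain that binds IL-25 and IL-17B, had 0 and 8 counts in controls and 32 and 17 in spermidine libraries. This was 0 and 1.16 CPM against 36.6 and 12.1 CPM, with no overlap. On the log2 scale the rise was 5.24 ± 1.23 (edgeR adjusted p = 0.0113). Both spermidine counts exceeded the background, which was 6.58 in replicate 1 (95% exact Poisson interval of the count 21.9 to 45.2) and 0.356 in replicate 2 (9.90 to 27.2). It kept its call with the background subtracted and lost it without control replicate 1 and without spermidine replicate 1. These fits, with 1 library in a group, called fewer genes over the whole table too. Il17ra, the signalling chain that Il17rb and the other IL-17 receptors need, has 26 own bases and had 1 count in control replicate 1. Il17rc, Il17rd and Il17re had none on 84 or fewer own bases.

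The Janus kinases carry the signal of the class I and class II receptors. Jak1, which serves the gamma chain, gp130 and interferon receptors, had 136 and 70 counts in controls and 21 and 92 in spermidine libraries. In scaled counts these were 19.7 and 10.1 CPM against 24.0 and 65.5 CPM, without overlap, and the log2 fold change of 1.63 ± 0.73 was not called (edgeR adjusted p = 0.133). Jak2, which serves the beta chain and interferon gamma receptors, had 5 and 8 counts in controls and 15 and 14 in spermidine libraries, or 0.725 and 1.16 CPM against 17.2 and 9.97 CPM. Its log2 fold change was 3.75 ± 0.93 (edgeR adjusted p = 0.0150). Jak3, the partner of the gamma chain, had 15 counts in each control and 2 and 0 in spermidine libraries on 151 own bases. Tyk2, which serves type I interferon and IL-12 receptors, had 1 and 7 counts in controls and 0 in both spermidine libraries.

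The value of Jak2 needs care, as none of its 5696 own bases lies in a GENCODE M21 exon of the gene. Its 15 counts in spermidine replicate 1 were below the background of 18.2 (95% exact Poisson interval of the count 8.40 to 24.7), whereas the 14 in replicate 2 were above a background of 0.983. The row that held most of the counts, with 2327 own bases, had 5 and 7 counts in controls and 3 and 12 in spermidine libraries (2.88 ± 0.88 on the log2 scale, edgeR adjusted p = 0.0372 over rows). A row with 3012 own bases had 0 and 1 against 12 and 2. With the background subtracted Jak2 was no longer tested, and it was not called without control replicate 1, control replicate 2 or spermidine replicate 1. The fits without these libraries have 1 library in a group and called fewer genes over the whole table too.

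Of the 58 genes, 30 had 0 counts in both controls, and 13 of these had counts in a spermidine library. For 9 of the 13, spermidine replicate 1 alone had counts. The 13 genes held 131 counts in spermidine replicate 1, where background on receptor genes of the same length would give 87.3. For 8 of the 13, the 95% exact Poisson interval of the count held the background value, so no RNA beyond it was detectable at this depth. They include Flt3, the receptor tyrosine kinase for FLT3 ligand, at 18 counts against a background of 11.9, Il22ra1 at 23 against 18.6 and Il1rapl2 at 15 against 17.3. Il1rapl1 was below it, at 2 against 8.75.

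By counting error alone, Il23r, Il1r1, Il2rb and Il1r2 were above the background in spermidine replicate 1. The intervals leave out the spread between libraries. The genes were also picked for having counts with spermidine and none in controls, so they are no evidence of a rise. Il23r had 23 counts against 7.95 (interval 14.6 to 34.5), Il1r1 had 12 against 0.872 (6.20 to 21.0), Il2rb had 8 against 0.872 (3.45 to 15.8) and Il1r2 had 7 against 2.65 (2.81 to 14.4). Of these, only Il23r had counts in spermidine replicate 2 as well, where there were 3. None of the 4 passed the low-count filter. Of the own bases, 97.4% in Il1r1, all 831 in Il1r2 and 57.5% in Il2rb lie outside the GENCODE M21 exons of the gene. In Il23r none do.

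**Figure D4:**
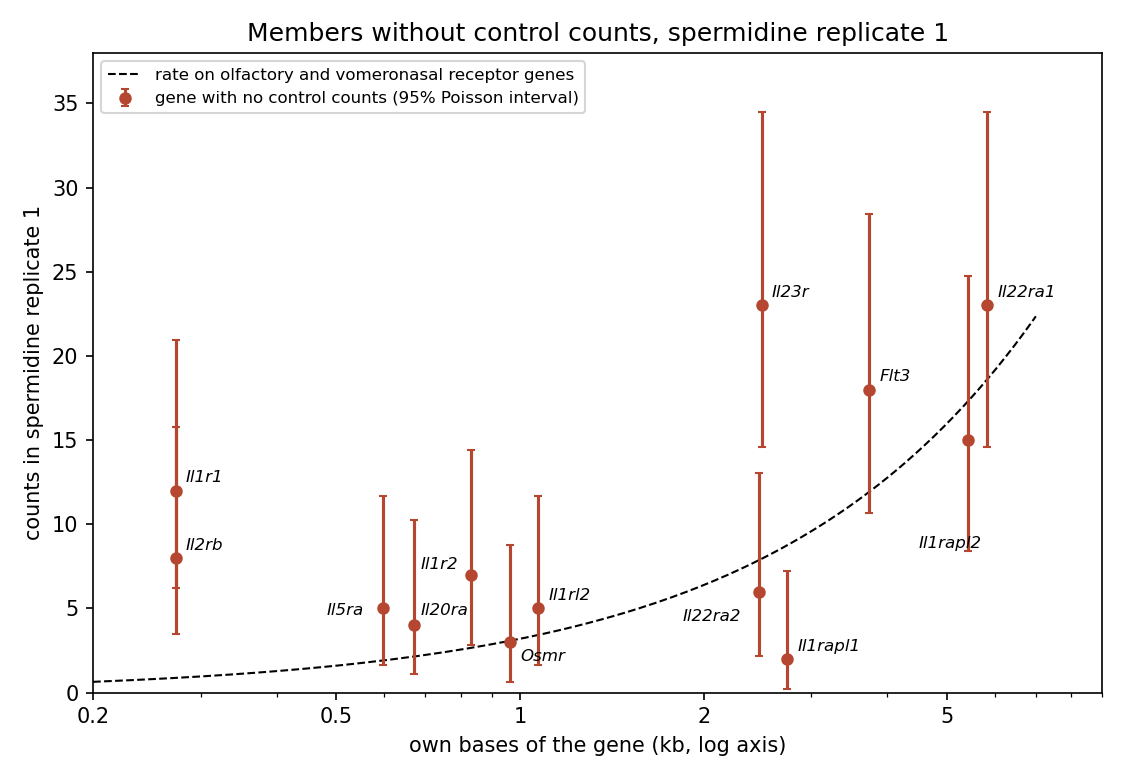
Counts in spermidine replicate 1 against own bases (log axis) for the 13 genes without control counts, with 95% exact Poisson intervals (counting error only). The dashed line is the rate on olfactory and vomeronasal receptor genes, 3.19 counts per kb, and Il23r, Il1r1, Il2rb and Il1r2 lie above it with their whole interval.

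After TMM scaling, 8 of the 18 tested genes had both spermidine libraries above both controls and 4 had both below. Among all tested genes this was so for 36.6% and 29.6%. The remaining 6 overlapped. The 8 were Lifr, Il17rb, Il1rap, Jak2, Il6st, Ifnar1, Jak1 and Il13ra1, and the 4 were Il2ra, Il4ra, Csf2rb2 and Il12rb2. Of the 8, Lifr, Il17rb, Il1rap, Jak2 and Il13ra1 were kept for testing on the strength of the spermidine libraries alone, which largely sets their direction. In spermidine replicate 1, Il1rap, Jak2 and Il13ra1 had no more counts than the background. Tested markers of several cell types were also called higher. Those of granulosa and theca cells summed to 162 and 134 CPM in controls and 2332 and 7016 CPM in spermidine libraries, with 7 of 8 tested higher. All 5 tested markers of the ovarian surface epithelium were higher, at 0.435 and 0.868 CPM in sum against 122 and 281. All 5 tested oocyte markers were higher, at 1.45 and 2.60 CPM in sum against 158 and 2197, as were the 4 tested germ cell markers. All 3 tested endothelial markers were higher, at 1.45 and 0.579 CPM against 106 and 117. Before TMM scaling, all tested oocyte, surface epithelium and endothelial markers were below the filter minimum of 2.26 CPM in both controls. So were Dppa3, Mael, Sycp3, Foxl2, Wt1, Fshr and Cyp17a1. These markers were kept for testing on the strength of the spermidine libraries alone, which largely sets their direction. Other lists were mixed. Of 9 tested markers of fibroblasts and stroma, 5 were higher and 1 lower. That list summed to 6351 and 6744 CPM in controls, with the spermidine libraries on either side at 3743 and 12470. Of 5 tested macrophage and leukocyte markers 2 were higher, Lyz2 and Cd14. Cd68, Tyrobp and Coro1a had negative estimates and were not called (-1.82, -1.68 and -0.32 on the log2 scale). The part of these cell types in the rise of Lifr, Il17rb, Il1rap and Jak2 was not tested.

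The ligands, signal transducers and other receptors of these pathways were followed as a list of 93 genes. Of 29 tested, 1 rose and 3 fell, beside 24.8% higher and 3.99% lower among all tested genes. The median log2 fold change was -0.99, against 0.23 over all tested genes. Among 4 tested ligands, 2 fell. Osm, which encodes oncostatin M and binds through Lifr or Osmr with gp130, had 4827 and 5794 counts in controls and 95 and 38 in spermidine libraries (-3.55 ± 0.73 on the log2 scale, edgeR adjusted p = 0.00779). Il13, whose receptor is Il13ra1 with Il4ra, had 742 and 421 counts in controls and 14 and 7 in spermidine libraries (-3.12 ± 0.79, edgeR adjusted p = 0.0172). Il4 had 95 and 61 counts in controls and 1 and 0 in spermidine libraries, and its estimate of -4.58 ± 1.59 was not called (edgeR adjusted p = 0.0614). Lif had 18 and 15 counts in controls and 30 and 0 in spermidine libraries, so that the spermidine libraries lay on either side (2.63 ± 1.31, edgeR adjusted p = 0.171).

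Of 22 tested signal transducers and regulators, Pim2 fell and none rose. Pim2, a survival kinase induced by STAT signalling, had 2885 and 2397 counts in controls and 80 and 29 in spermidine libraries (-2.82 ± 0.72 on the log2 scale, edgeR adjusted p = 0.0183). The related kinase Pim1 had 3269 and 4169 counts in controls and 208 and 201 in spermidine libraries (-1.51 ± 0.54, edgeR adjusted p = 0.0681). Cish, a feedback inhibitor, had 273 and 167 counts in controls and 17 and 2 in spermidine libraries (-1.82 ± 0.99, edgeR adjusted p = 0.204), and Socs2, another inhibitor, had 120 and 87 against 21 and 25 (0.46 ± 0.72, 0.669). Stat5a had 33 and 29 counts against 3 and 1 (-1.32 ± 1.06, edgeR adjusted p = 0.382), and Stat5b had 111 and 162 against 42 and 20 (0.58 ± 0.76, 0.606). Socs3 had 2 and 7 counts in controls and 1 in each spermidine library and was not tested. Stat3 has no own base here and could not be counted.

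Of 4 tested genes among the other receptors and adaptors, Prlr rose. Cish is 1 of these 4 and is also counted among the signal transducers and regulators. Prlr, the prolactin receptor, a class I cytokine receptor that signals through Jak2, had 0 and 1 counts in controls and 73 and 12 in spermidine libraries (edgeR adjusted p = 0.00749). It passed the filter only through the spermidine libraries, which largely sets its direction. The log2 fold change was 8.71 ± 1.67 by edgeR. With 1 control count, the ratio of scaled levels was 515, with a 95% exact counting interval from 90.0 to 20580. That interval pools the libraries of a group and leaves out the spread between them. The spermidine libraries stood at 83.5 and 8.54 CPM. Csf1r, the receptor for macrophage colony stimulating factor, had no counts on 18 own bases.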

How the data were processed

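The deposited table holds whole-number counts for 106519 RefSeq transcript rows, not normalised, per the file headers. HISAT2, DESeq2 and the build mm9 are named, with no roles, per the submitters' processing notes. The row positions match GRCm38 (88.5% of matched rows lie inside their gene's span), so positions are given on that build. The sources used here state no counting program. More than 1 library kit appears in the labels' protocols, and no batch is given.

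Rows were summed to genes (86040 of 106519 rows matched). Genes passing filterByExpr by group (count minimum 10, total minimum 15) were scaled by TMM (factors 0.961, 0.973, 1.30 and 0.824 for control 1, control 2, spermidine 1 and spermidine 2). Testing used glmQLFit and glmQLFTest of edgeR 4.0.16 (R 4.3.3) on the group alone, which left 2 residual degrees of freedom. Calls used a Benjamini-Hochberg adjusted p under 0.05. Replicates differed beyond sampling noise (chi-square over degrees of freedom 40.8 in controls, 31.7 in spermidine libraries). Own bases are exonic bases held by 1 row only. Background is the count per kb on olfactory and vomeronasal receptor genes.

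The genes, lists and tests were chosen with earlier results of these data known. Every tested gene of the 58 is named, as are those with at least 10 counts, fixed members such as Flt3 and the Janus kinases, called partner genes and 6 fixed ones; others were named with their values in view. The alternatives were scaling, filters, DESeq2 1.42.0, limma-voom (limma 3.58.1), a replicate block, transcript rows, protein-coding genes, depth, background and each library left out. Added after the data were seen were unnamed rows at member loci, equal depth without AY036118 (554572 counts) and the legacy edgeR test. Protein sequences were not used here.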

Additional observations from a re-analysis of the deposited data

How the results depend on the processing

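Of the 58 genes, 4 were called higher and 3 lower. Both counts were 0 without the low-count filter, where 0 of all 29023 genes were called higher and 0 lower. That loss is therefore not particular to the 58. In that fit, 7 of the 58 had an unadjusted p under 0.05 for a rise by edgeR. With at least 1 CPM in all libraries the counts were 0 and 1 of 13 tested, beside 230 and 45 of all 5231 genes. Among protein-coding genes without AY036118, 8 of 21 tested members were called higher, beside 1540 of all 6276 genes. The 4 called higher in the main fit passed the filter only through the spermidine libraries. Members without control counts, such as Il23r, can enter this fit, which tested more members, only in that way. That largely sets their direction, so the share called higher is no evidence of a rise. After subtraction of the receptor background it was 2 of 16, beside 1254 of all 7002. With controls thinned to the average spermidine depth, 1 of 13 tested members was called lower. Over all 4953 genes of that fit, 964 were higher and 104 lower. At equal depth without AY036118, 1 of 11 was called lower. Over all 4024 genes there, 749 were higher and 86 lower. With 1 library left out, calls varied among the 58 genes and also over the whole table. Such fits have 1 library in a group. For the partner genes, 1 higher and 3 lower became 0 and 0 without the filter, and 0 and 1 with 1 CPM in all libraries, with thinned controls and at equal depth. Leaving out 1 library gave 0 to 4 and 0 to 5.

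The median log2 fold change of the tested genes, 1.14, was 1.28 with upper-quartile factors, 1.24 without the filter, 0.56 with 1 CPM in all libraries, 1.30 with DESeq2, 1.28 with limma-voom, 1.75 for protein-coding genes, 1.75 with thinned controls, 0.66 with background subtracted, 0.80 with unnamed rows added and 0.94 at equal depth. It was 0.48 to 1.40 with 1 library left out. Signs turned only in genes that were not called. Ifngr1 was -0.10 without the filter, and from -0.015 (without spermidine replicate 2) to 0.62 with 1 library left out. Ifngr2 was -0.24 without the filter, -0.12 with limma-voom and from -1.10 (without spermidine replicate 2) to 0.75 with 1 library left out. Il18r1 was -0.19 without the filter, -0.27 without control replicate 1 and from -0.84 (without spermidine replicate 2) to 1.11 with 1 library left out. Il27ra ran from -0.28 without spermidine replicate 1 to 7.14 without control replicate 2, and Il21r from -1.01 to 2.52 for the same libraries. The cause was not tested.

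With the replicate number as a block, 4 genes were higher and 3 lower, with a median of 1.20, and Ifngr2 turned to -0.16. Over all 7836 genes of that fit, 1681 were higher and 94 lower. Partner genes gave 1 and 3. The labels pair no libraries, and same-numbered deviations had a correlation of -0.030. The spermidine libraries, with a total as low as 787600 counts, limit what can be seen of genes with few own bases.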
